A study of Mus musculus with 2 samples.

Results

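The cells described here are dividing crypt cells of the mouse colon in which Atoh1, the transcription factor that commits crypt cells to secretory fates, was not detected. They came from 2 droplet (10x) single-cell RNA libraries of isolated colonic crypt cells and were chosen by a rule on each cell's own counts of unique molecular identifiers (UMIs, 1 per captured RNA molecule). A cell had to hold at least 5000 UMIs and 500 genes, less than 25% mitochondrial UMIs, at least 1 UMI of the epithelial gene Epcam, none of the leukocyte gene Ptprc, the stem cell gene Lgr5 or Atoh1, and at least 5 UMIs in the sum of Mki67, Top2a, Birc5 and Ube2c. The rule found 1417 cells among 19406 barcodes, 717 in the control and 700 in the cKO library. The control library came from M14(f/f) mice, which carry the floxed allele without a recombinase. The cKO library came from M14(f/f);Villin-Cre mice, in which Cre is driven by the Villin promoter, active in the gut epithelium. M14 is read here as Mettl14, a subunit of the RNA m6A methyltransferase. Both groups were C57BL/6 mice of 4 weeks, with 3 mice pooled per genotype, so each genotype is 1 library, no mouse can be followed and no test between genotypes was possible. Intervals in parentheses after shares and folds are exact 95% intervals, which cover counting error only.

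In the colon, stem cells at the crypt base give rise to transit-amplifying cells, which divide several times while they move up the crypt and then stop dividing and mature. Notch signalling between neighbouring cells keeps Atoh1 off in progenitors of the absorptive lineage, while cells in which Atoh1 stays on become goblet and enteroendocrine cells. Dividing cells copy their DNA in S phase, with genes under E2F transcription factors, and then use a second set of genes, under B-MYB and FOXM1, to condense, separate and pack chromosomes in G2 and mitosis.

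The libraries held 10181 and 9225 barcodes with 111239295 and 89729527 UMIs, and 33 barcode sequences occurred in both, none of them among the dividing cells. Median depth of the dividing cells was 15786 UMIs in the control and 19845 in the cKO library, with 3600 and 3976.5 genes per cell, and their median mitochondrial share was 3.35% and 2.81%. The libraries also differed in sex-linked genes: Xist, the RNA of the silenced X chromosome, stood at 0 CPM in the control and 289.7 in the cKO cells, and 4 Y-linked genes summed to 96.6 and 0 CPM. Here and below a level is the UMIs of a gene summed over the cells, per 1000000 UMIs of those cells (CPM), given in the order control, then cKO. Genotype and sex cannot be told apart in these libraries. Mettl14 (ENSMUSG00000028114, chromosome 3:123368297-123386108, minus strand in GENCODE M21) was detected at 78 and 116 UMIs, 5.77 and 6.88 CPM, a ratio of 1.19 (0.886 to 1.61). The floxed exons are not named in the labels, so RNA counted at the gene does not check the deletion.

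The label of dividing cells was checked on genes the rule did not use. Cdk1, the mitotic kinase, stood at 201 and 182 CPM against 7.08 and 10.9 in Atoh1-negative cells with none of the 4 UMIs (non-cycling cells, 1377 and 768). Pcna, the sliding clamp of DNA polymerases, stood at 39.8 and 41.4 CPM against 16.1 and 10.6, and Mcm6, of the replicative helicase, at 48 and 42 CPM against 9.0 and 8.08. In both libraries the dividing cells were above the non-cycling cells for all 3 genes.

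Among Epcam-positive, Ptprc-negative cells of sufficient depth, the dividing Atoh1-negative cells made up 11.3% of 6330 cells (10.6 to 12.1) in the control and 18.4% of 3796 cells (17.2 to 19.7) in the cKO library. The gap was smaller at equal depth and without Birc5, the survivin subunit of the mitotic chromosomal passenger complex. When every cell was first thinned at random to 5000 UMIs, the shares were 11% (10.2 to 11.8) and 12.4% (11.3 to 13.5). When Birc5 was dropped from the sum, an alternative added after seeing the data, the shares were 9.92% (9.20 to 10.7) and 11.7% (10.7 to 12.8). In the control library 89 cells (12.4%, 10.1 to 15.1) reached the sum of 5 only with Birc5, and in the cKO library 254 cells did (36.3%, 32.7 to 40.0). Of those, 3 and 48 cells held no UMI of Mki67, Top2a or Ube2c. Thinning did not keep the same cells: 498 and 370 met the rule both ways, and 198 of 201 and 97 of 101 cells gained by thinning had Atoh1 or Lgr5 UMIs at full depth. At the threshold itself, 39 and 47 cells had exactly 5 UMIs and were kept, and 77 and 47 cells had 4 and were not.

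**Figure D1:**
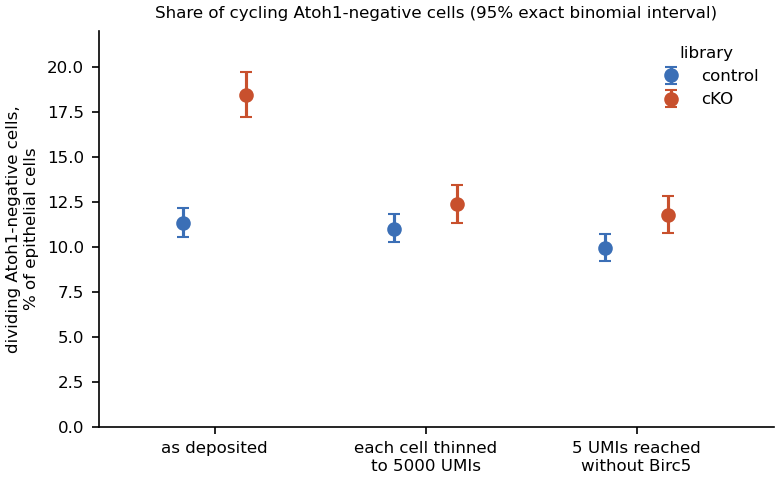
Share of Epcam-positive, Ptprc-negative cells (percent, vertical axis) that met the rule in the control and cKO libraries under each version of the rule, with exact 95% intervals that cover counting error only. The cKO share is 18.4% under the rule as given, 12.4% after thinning to 5000 UMIs and 11.7% without Birc5, while the control share is 11.3%, 11% and 9.92%.

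The 4 genes of the rule are given as a description, since they chose the cells. Top2a, the topoisomerase that untangles replicated DNA, stood at 163 and 84.2 CPM and was detected in 78.4% and 55.3% of the cells. Ube2c, the ubiquitin-conjugating enzyme of the anaphase promoting complex, stood at 871 and 467 CPM, in 95.4% and 84.1% of cells. Mki67, which coats mitotic chromosomes, stood at 137 and 118 CPM, and Birc5 at 425 and 474 CPM, in 96.4% and 96.1% of cells.

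Each cell was placed in S or G2/M phase by 43 S-phase and 50 G2/M genes, none of them a gene of the rule, after thinning to 5000 UMIs. The rule's own genes were higher in G2/M than S cells, so the rule favoured G2/M cells. Ube2c stood at 298 CPM in S against 1160 in G2/M cells of the control library, and 236 against 730 in the cKO library. The phase shares therefore describe cells chosen by the rule, not all dividing cells. In the control library 500 cells were called G2/M (69.7%, 66.2 to 73.1), 124 S (17.3%, 14.6 to 20.3) and 93 neither (13.0%, 10.6 to 15.7). In the cKO library 384 cells were called G2/M (54.9%, 51.1 to 58.6), 139 S (19.9%, 17.0 to 23) and 177 neither (25.3%, 22.1 to 28.7). The S shares have overlapping intervals, whereas the cKO library held a smaller G2/M share and a larger share of cells in neither phase. Of the 254 cKO cells that entered only through Birc5, 129 (50.8%) were in neither phase, and without such cells the G2/M shares were 74.5% and 67.5%. The calls also moved with the thinning draw, which in another draw gave G2/M shares of 60.3% and 47.1%, with 605 and 568 cells keeping their phase. Both scores were above 0 in 241 and 194 cells, and in 97 and 150 cells the scores lay within 0.05 of each other.

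The cells of neither phase differed between the libraries in the rule genes. In the control library these cells held Top2a at 71.5, Ube2c at 282 and Birc5 at 161 CPM. In the cKO library they held Top2a at 20, Ube2c at 76.5 and Birc5 at 348 CPM. Of these cells, 30 of 93 in the control and 129 of 177 in the cKO library had reached 5 UMIs only with Birc5. The levels are therefore a description that depends in part on the rule. The cells that entered through Birc5 were between the other dividing cells and the non-cycling cells in the phase genes. After thinning, their median was 20 UMIs of the G2/M list in both libraries, against 36 and 33 in the other dividing cells and 9 and 6 in non-cycling cells. For the S list the medians were 5 and 4, against 7 and 8 in the other dividing cells and 2 and 1 in non-cycling cells.

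**Figure D2:**
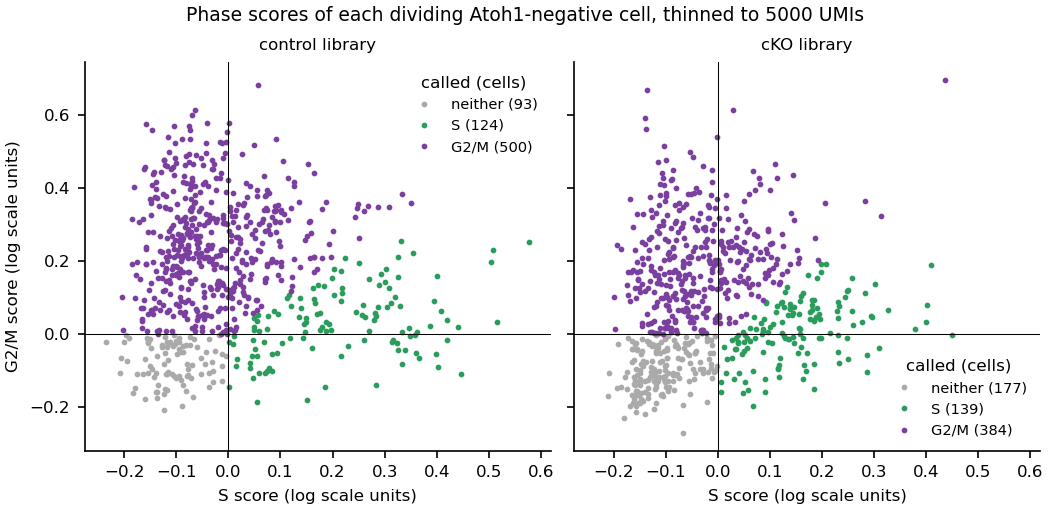
S score (horizontal axis) and G2/M score (vertical axis) of every dividing Atoh1-negative cell after thinning to 5000 UMIs, in score units without a fixed range, with the control library on the left and the cKO library on the right and colours for the phase called. The 500 control and 384 cKO cells called G2/M lie above 0 on the vertical axis, and the cells in neither phase, 93 in the control and 177 in the cKO panel, lie below 0 on both axes.

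G2/M cells were compared with S cells within each library on 6971 genes that averaged at least 10 CPM over both phases and libraries and were in neither the rule nor the phase lists. A gene was counted where its ratio, with 1 CPM added to both levels, passed 1.5-fold. In the control library 3.83% of these genes were higher in G2/M and 4.13% higher in S, and in the cKO library 2.42% and 2.31%. In both libraries at once, 66 genes (0.947%) were higher in G2/M and 74 (1.06%) higher in S, and 17 genes went opposite ways. The 66 genes are 24.7% of the control's and 39.1% of the cKO's G2/M-high genes, and the 74 are 25.7% and 46.0% of the S-high genes. Across the 6971 genes, which share the cells and their phase calls, the log2 ratios of the libraries correlated at Pearson r = 0.27.

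Genes higher in S cells included parts of the machinery that licenses and copies DNA. Ccne1, the cyclin E that starts S phase, stood at 55.4 CPM in S against 8.31 in G2/M cells of the control library, and 75.7 against 19.1 in the cKO library, a ratio of 6.67-fold (4.95 to 9.02) and 3.97-fold (3.27 to 4.82). Cdt1, which loads the helicase onto origins, stood at 47.5 against 10.5 and 36 against 11.9 CPM in the same order. Of the helicase itself, Mcm3 stood at 94.5 against 25.5 and 74.3 against 21.6 CPM and Mcm7 at 115 against 46.2 and 98.9 against 45.4. Rfc3, of the clamp loader, stood at 95 against 33.2 and 81.1 against 33.4 CPM. In every one of these genes S cells were above G2/M cells in both libraries, and the counting intervals of the libraries' ratios overlapped for Cdt1, Rfc3 and Mcm7 but not for Ccne1. Of the other S-high genes at the head of the ranking, Gins1 belongs to the replicative helicase, Lig1 joins DNA fragments, and Hat1 acetylates new histones, while Slfn9, Fam111a, Arl6ip6 and Zmynd19 complete the group.

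Genes higher in G2/M cells were led by mitotic regulators. Cdkn3, a phosphatase of cyclin-dependent kinases, stood at 45.2 CPM in S against 178 in G2/M cells of the control library, and 38.1 against 123 in the cKO library, a ratio of 3.95-fold (3.22 to 4.9) and 3.23-fold (2.71 to 3.88). Ccnb1, the mitotic cyclin B, stood at 27 against 84 and 28.4 against 77.4 CPM, Plk1, a kinase of spindle assembly, at 37.7 against 86.1 and 24.1 against 60.2, and Arl6ip1, an endoplasmic reticulum membrane protein, at 268 against 654 and 139 against 404. Knstrn and Kif20a act at the spindle, Racgap1 at the cleavage furrow, and Sapcd2, Cdkn2d and Pmp22 were also among the 12 highest. Pmp22 averaged a log2 ratio of 1.09 over the libraries, and its sign depended on how phases were called. The gut hormone genes Pyy and Sct ranked with them but were carried by few cells: 5 cells held 94.7% and 98% of all Pyy UMIs and 49.6% and 76.3% of Sct UMIs.

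The promoters of these phase genes are shown because DNA letters known from cell cycle promoters differ between the 2 groups. CCAAT boxes are bound by NF-Y, the cell cycle homology region (CHR, TTTGAA) by the complex of B-MYB, FOXM1 and MuvB, and E2F factors bind letters such as TTTCGCGC. Promoter windows of 250 bases before to 50 after the gene start were taken from RefSeq (GRCm38.p6) and searched on both strands, for CCAAT, for TTTGAA, and for any of TTTCGCGC, TTTGGCGC, TTTCCCGC and TTTGCCGC as the E2F letters, which can overlap one another. The TTTGAA letters were in 44.4% of the 54 matched G2/M-high promoters, 9.52% of the 63 matched S-high promoters and 11.9% of the 5553 promoters matched among all genes measured. The E2F letters were in 5.56%, 22.2% and 4.65%. CCAAT was in 59.3%, 54.0% and 39.0%, and CCAAT together with TTTGAA in 33.3%, 3.17% and 4.81%. Over all 27025 RefSeq promoters the shares were 37.9% for CCAAT, 18.1% for TTTGAA, 7.12% for both and 2.32% for the E2F letters. A match describes letters, not a bound site.

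The 250 bases before the start are printed 5′ to 3′ on the gene's strand for the first 2 genes of each ranking that belong to one of the gene lists used here and hold the letters there, so they were chosen for the match and are no evidence of its frequency. Capitals mark the letters searched, CCAAT (or ATTGG) and TTTGAA (or TTCAAA) in the G2/M genes and the E2F letters in the S genes. The windows are chr14:46760291-46760540 on the plus strand for Cdkn3, chr13:100786487-100786736 on the minus strand for Ccnb1, chr5:151651209-151651458 on the minus strand for Rfc3 and chr5:138171884-138172133 on the minus strand for Mcm7.
Cdkn3: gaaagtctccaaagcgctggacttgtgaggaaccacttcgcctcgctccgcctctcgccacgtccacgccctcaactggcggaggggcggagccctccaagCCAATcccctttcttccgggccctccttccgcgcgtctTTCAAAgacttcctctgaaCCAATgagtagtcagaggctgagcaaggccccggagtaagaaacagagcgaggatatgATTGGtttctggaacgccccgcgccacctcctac
Ccnb1: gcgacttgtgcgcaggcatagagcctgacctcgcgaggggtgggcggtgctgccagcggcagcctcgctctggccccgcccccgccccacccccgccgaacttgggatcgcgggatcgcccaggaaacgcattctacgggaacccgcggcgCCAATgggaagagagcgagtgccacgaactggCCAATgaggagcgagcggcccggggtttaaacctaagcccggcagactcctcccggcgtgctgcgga
Rfc3: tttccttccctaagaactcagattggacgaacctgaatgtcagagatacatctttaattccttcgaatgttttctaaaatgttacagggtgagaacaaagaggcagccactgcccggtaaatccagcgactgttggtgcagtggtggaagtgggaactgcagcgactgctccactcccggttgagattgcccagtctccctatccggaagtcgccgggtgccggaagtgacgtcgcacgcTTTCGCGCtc
Mcm7: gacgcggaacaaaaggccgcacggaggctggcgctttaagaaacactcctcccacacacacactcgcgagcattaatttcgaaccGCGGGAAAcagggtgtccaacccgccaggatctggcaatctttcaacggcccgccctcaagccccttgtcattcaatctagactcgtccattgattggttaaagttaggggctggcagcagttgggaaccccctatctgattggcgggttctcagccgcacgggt
In the Cdkn3 window the letters start 149, 111, 92 and 34 bases before the gene start, with TTCAAA between the first 2 CCAAT boxes. Ccnb1 holds CCAAT at 99 and 67 bases and no TTTGAA in this window. Rfc3 holds TTTCGCGC at 10 bases, and Mcm7 holds GCGGGAAA, the reverse complement of TTTCCCGC, at 165 bases. Ccne1, the leading S gene, has none of the E2F letters in its whole window, and the match of Cdt1 lies after its start.

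**Figure D3:**
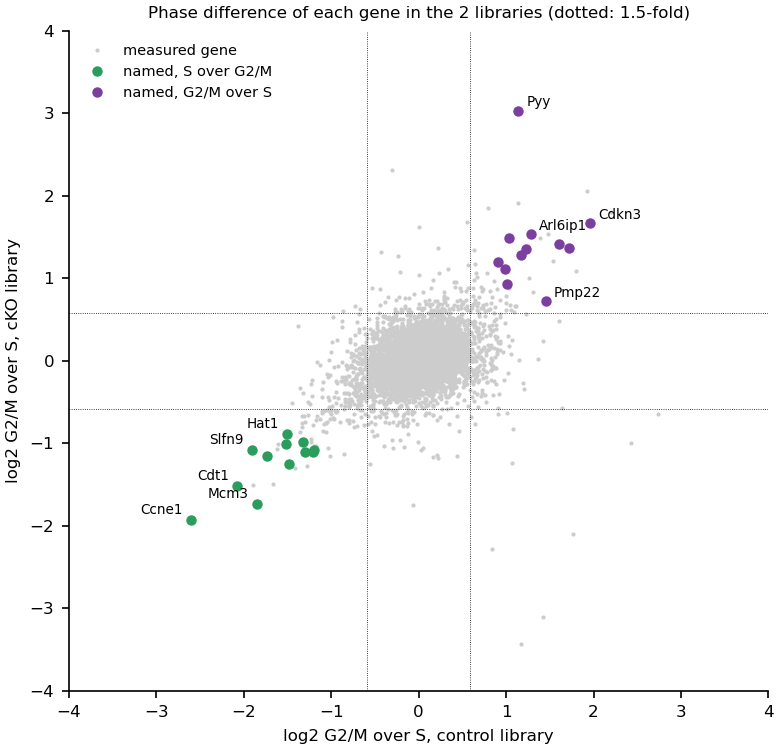
Log2 ratio of G2/M over S cells (1 CPM added) in the control library (horizontal axis) and in the cKO library (vertical axis), 1 point per gene, for 6971 genes outside the rule and the phase lists, with the 12 named genes of each phase in colour and dotted lines at 1.5-fold. Ccne1 lies farthest to the lower left and Cdkn3 farthest to the right of the named genes, most genes lie inside the dotted lines, and 8 genes lie outside the plotted limits.

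Gene lists that did not enter the phase calls were read the same way. Of 32 measured genes of origin licensing and the replication fork, 19 were lower in G2/M than in S cells in the control and 18 in the cKO library. Of 22 spindle and cytokinesis genes, 12 and 10 were higher in G2/M cells and none lower. Of 23 nucleotide synthesis genes, 13 were lower in G2/M cells in the control but 3 in the cKO library, with median log2 ratios of -0.72 and -0.28. Of 33 ribosome biogenesis genes, 5 were lower in G2/M cells in the control and 0 in the cKO library. MHC class I genes and core proteasome genes had 0 past 1.5-fold between the phases in either library.

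A few genes had opposite phase ratios in the libraries. Fabp5, a fatty acid carrier, stood at 149.9 CPM in S against 109.9 in G2/M cells of the control library, and 272 against 499 in the cKO library. Chgb was also more on the G2/M side in the cKO library, and Reg4 and Zg16 less so, but these genes of secretory cells were carried by few cells. The top 5 cells held 38.5% and 76.7% of Reg4 UMIs, 73.6% and 86.2% of Zg16 and 60.7% and 83.7% of Chgb. Fabp5 was broadly spread, with 7.44% and 8.99% of its UMIs in 5 cells.

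The libraries were then compared over all dividing Atoh1-negative cells on 7026 genes that averaged at least 10 CPM. In the cKO library 985 genes (14%) were at least 1.5-fold higher and 842 (12%) at least 1.5-fold lower, and the median gene had a log2 ratio of -0.03. Within S cells the shares were 13.8% and 12.6%, and within G2/M cells 14.7% and 12.2%. Without the cells that entered only through Birc5 the counts were 977 and 819, and without cells of over 50000 UMIs (15 and 54) they were 1022 and 889, both chosen after seeing the data. Counts below refer to this 1.5-fold line and are read beside those backgrounds of 14% and 12%. Markers of other cells differed as well, and their part in the results was not tested. Summed levels were 3.63 and 10.5 CPM for T and NK markers, 0.370 and 52.2 for B and plasma cell markers, and 66.9 and 138 for myeloid markers, of which Cd14 made up 65.3 and 57.6, while Cd3e was at 0 and 0.237 CPM. Jchain made up most of the B and plasma sum, with 97.4% of its cKO UMIs in 5 cells, and 7 and 6 of the stromal markers were at 0.

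Over all dividing cells, genes of DNA replication were close in level between the libraries. Of 29 measured genes of origin licensing and the fork, 3 were higher and 2 lower in the cKO cells, with a median log2 ratio of 0.00. The sign of this median changed under 7 of 15 alternatives. Within S cells 2 were higher and 4 lower (median -0.22). Pclaf, the PCNA-associated factor, was the lowest of them at 389 and 134 CPM, 2.9-fold lower (2.76 to 3.05), and it was detected in 72.8% and 32.4% of cells thinned to 5000 UMIs (90.5% and 60.7% unthinned). In T cells (Epcam at 0, Ptprc and Cd3e detected), taken as the background for free RNA, Pclaf was detected in 17.1% and 19.3% of 41 and 57 cells, which had median depths of only 1755 and 2172 UMIs. Ube2c was detected in 29.3% and 21.1% of these T cells, so their Pclaf cannot be read as free RNA alone. Pold2 stood at 68.1 and 40 CPM, against Pold1, the catalytic subunit of the same polymerase delta, at 11.8 and 29.3 CPM. Dbf4, the activator of the origin-firing kinase Cdc7, stood at 46.8 and 97 CPM. Of the 38 measured genes that called S phase, 1 was higher and 3 lower, with Fen1, the flap endonuclease, at 32.1 and 91.5 CPM. Within S cells 1 of these 38 was higher and 11 lower (median -0.33), beside 13.8% and 12.6% of all genes. These genes had chosen the S cells, so their level there depends on the call and is given as a description.

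Nucleotide synthesis genes leaned to the cKO cells. Of 22 measured, 8 were higher and 0 lower, with a median log2 ratio of 0.34. Nme1, a nucleoside diphosphate kinase, stood at 519 and 879 CPM, Tk1, thymidine kinase, at 93.3 and 156 CPM, Umps, of pyrimidine synthesis, at 29.3 and 57.8 CPM, and Mthfd2, of mitochondrial one-carbon metabolism, at 20.7 and 37.9 CPM. The difference was on the side of the G2/M cells, where 9 genes were higher and 0 lower (median 0.45), while in S cells 1 was higher and 4 lower (median -0.05). After thinning all members to 5000 UMIs the list's median was 0.063. For Tk1 the levels were 129 and 157 CPM in S cells and 102 and 177 in G2/M cells.

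Ribosome biogenesis genes had the same lean. Of 33 measured, 10 were higher and 0 lower, with a median of 0.25. In G2/M cells 9 were higher and 0 lower (median 0.33). In S cells 4 were higher and 0 lower (median 0.14), beside 13.8% of all genes higher there. Across the alternatives the list's median ran from 0.090 to 0.39. Ncl, nucleolin, stood at 407 and 1016 CPM, 2.5-fold (2.42 to 2.57) higher, and Rrs1, a ribosome assembly factor, at 51.7 and 109 CPM. Nhp2, of the snoRNA ribonucleoproteins, stood at 308 and 541 CPM, and Bop1, a processing factor, at 27.5 and 22.2 CPM, which was within the 1.5-fold line on the lower side. Of 8 Myc network genes, Myc itself stood at 17.3 and 16.4 CPM, Mycl was the 1 higher gene at 6.96 and 20.6 CPM, and Mxd3, a Myc antagonist, the 1 lower at 21.2 and 13.5 CPM.

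Genes of mitosis leaned the other way by list median. By counts the lean was in the G2/M, spindle and kinetochore lists. Of the 47 measured genes that called G2/M phase, 1 was higher and 10 lower in the cKO cells, with a median of -0.34. Hmmr, a spindle assembly factor, stood at 73.1 and 31.6 CPM, Nusap1, which bundles spindle microtubules, at 80.7 and 37.2 CPM, Cdc20, the activator of the anaphase promoting complex, at 123 and 62.8 CPM, and Pimreg was the 1 higher gene, at 9.47 and 18.1 CPM. Of 22 spindle and cytokinesis genes 0 were higher and 7 lower (median -0.39), among them Prc1 at 85 and 44 CPM and Plk1 at 66.1 and 39.5 CPM. Over only its genes with a mean of 50 CPM or more this list's median was 0.045. Of 17 kinetochore genes 1 was higher, Zwint at 31.2 and 52.5 CPM, and 4 lower, led by Ska1 at 28.4 and 14.1 CPM. Of 18 cohesin and condensin genes 2 were lower, which is near the background of 12% (median -0.32). These were Smc1a at 125 and 63.7 CPM and Rad21 at 67.8 and 43.3 CPM. The spindle checkpoint and anaphase promoting complex list had more genes higher than lower, 3 and 1 of 20, though its median was -0.29. Fbxo5, an inhibitor of the complex, stood at 20.7 and 42.1 CPM and Bub1b at 27.4 and 14.6 CPM. The lean was smaller within G2/M cells alone, where 7 of 47 genes of the G2/M list were lower and 2 higher (median -0.20). That list had called these cells, so its level within them is partly set by the call and shows no likeness of the libraries. The spindle list had 4 of 22 lower and 1 higher there (median -0.23), beside 12.2% of all genes lower and 14.7% higher. Summed levels within G2/M cells were 7853 and 7859 CPM for the G2/M list, which had chosen these cells, and 4297 and 4487 CPM for the spindle list. Over all dividing cells the sums were 6477 and 5974 CPM, and 3871 and 3859 CPM.

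Cyclins did not move as a group: of 18 cyclin and kinase genes, 2 were higher and 3 lower. The higher ones were Ccne1 at 15.1 and 30.8 CPM and Ccnd2, a D cyclin of G1, at 187 and 292 CPM, and the lower ones Ccna2, the cyclin A of S and G2, at 138 and 81.6 CPM, Ccng2 at 16.4 and 7.29 CPM and the kinase Wee1 at 14.6 and 8.65 CPM. Of 10 inhibitors of the cycle 0 were higher and 4 lower (median -0.45). Cdkn1b, the p27 inhibitor, stood at 51.4 and 28.4 CPM, Btg2, an antiproliferative gene, at 145 and 59.8 CPM, Tob1 at 76.5 and 43.2 CPM and Rbl1, of the retinoblastoma family, at 13.2 and 8.3 CPM, while Cdkn1a, the p21 inhibitor, was within the line at 89.8 and 66.9 CPM. Of 10 E2F, B-MYB and FOXM1 regulators 1 was lower, E2f5 at 31.8 and 18.2 CPM. Of 19 histone genes 6 were lower and 1 higher, led by Hist1h2bc at 325 and 115 CPM and H2afx, the variant that marks DNA breaks, at 228 and 94.3 CPM, with the linker histone H1f0 at 284 and 447 CPM. Poly(A)-primed libraries capture replication-dependent histone RNAs poorly, and the histone genes are close copies of one another, so these histone levels are uncertain.

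**Figure D4:**
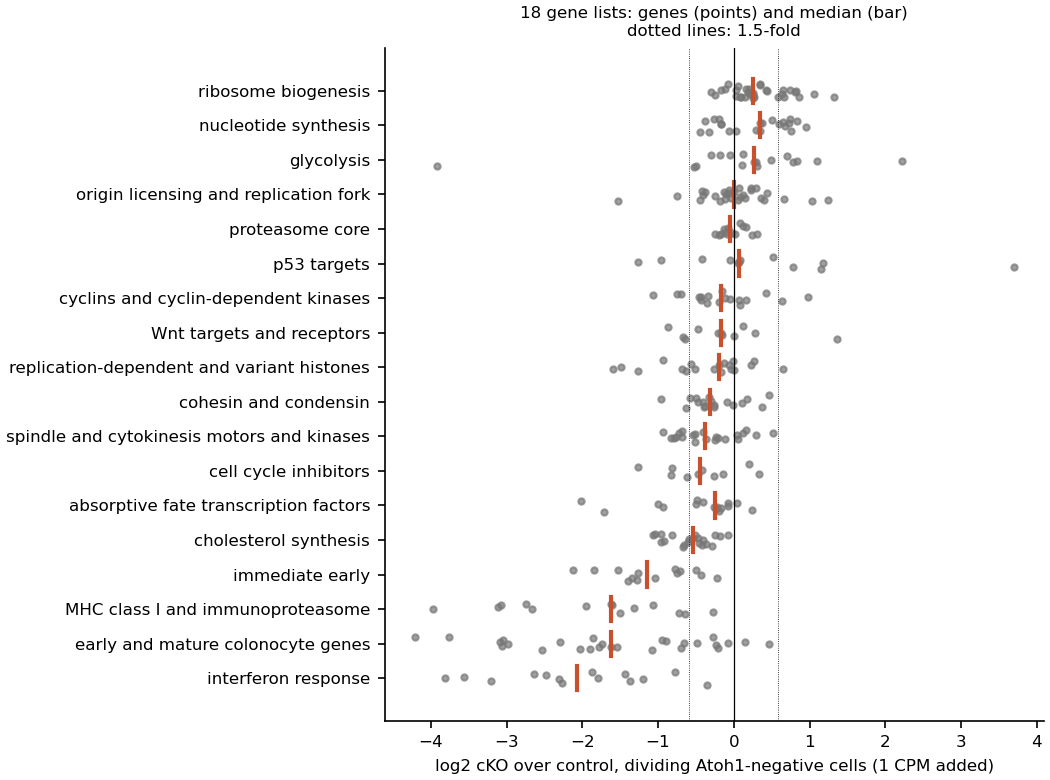
Log2 ratio of cKO over control dividing Atoh1-negative cells (1 CPM added, horizontal axis) for the measured genes of 18 gene lists, 1 point per gene and a bar at each list's median, with dotted lines at the 1.5-fold limits. The medians run from -2.07 for interferon response and -1.62 for colonocyte and MHC class I genes to 0.25 for ribosome biogenesis and 0.34 for nucleotide synthesis.

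Genes of the mature absorptive cell were lower in the cKO dividing cells, by less within S cells. Of 27 measured colonocyte genes 0 were higher and 20 lower, with a median of -1.62, against 15 lower and 2 higher in S cells and 21 lower and 0 higher in G2/M cells. Sult1a1, a sulfotransferase (ENSMUSG00000030711, chromosome 7:126672865-126676432, minus strand), stood at 362 and 18.6 CPM, 19.5-fold lower (17.4 to 21.9), and was detected in 67.9% and 7.29% of thinned cells (85.9% and 18.7% unthinned) against 2.44% of control T cells. Hao2, a peroxisomal hydroxyacid oxidase, stood at 309 and 21.8 CPM, in 55.9% and 7.14% of thinned cells, and Selenbp1, a selenium-binding protein, at 391 and 46.4 CPM. Car1, carbonic anhydrase 1, stood at 7570.1 and 909.98 CPM, but 97.6% and 12.3% of T cells also held it, so its presence in control cells is not read as expression. With the T cells' UMIs per barcode subtracted its log2 ratio was -3.01. Car2, another carbonic anhydrase, was within the line on the higher side at 701 and 965 CPM. In the phases, 8 of 24 colonocyte genes were higher in G2/M than S cells in the control library and 0 lower, against 1 higher and 3 lower in the cKO library.

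Of 16 transcription factors of absorptive fate 4 were lower and 0 higher. Vdr, the vitamin D receptor, stood at 50.4 and 11.7 CPM, 4.32-fold lower (3.68 to 5.08), Hnf4g at 26.5 and 7.41 CPM, Nr1h4, the bile acid receptor, at 43 and 20.9 CPM, and Hnf4a, a nuclear receptor of enterocyte identity, at 62.7 and 32.4 CPM. Cdx2, the intestinal identity factor, was within the line at 189 and 225 CPM. Of 7 secretory factors 2 were higher, Sox4 at 73.7 and 134 CPM and Hes6 at 61.4 and 146 CPM, and Spdef, of goblet cells, stood at 32.1 and 25.3 CPM. Of 6 measured Notch pathway genes 1 was higher and 2 lower, and the whole list summed to 238 and 298 CPM. Notch1 stood at 18.4 and 7.65 CPM and its feedback target Nrarp at 24.5 and 13.5 CPM, both lower. Hes1, the repressor of Atoh1, was nearly level at 76.8 and 72.7 CPM.

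Stem and Wnt genes did not move as a group. The rule left out Lgr5-positive cells, which were 269 of 6330 epithelial cells (4.25%) in the control and 16 of 3796 (0.42%) in the cKO library. The part of this unequal removal in the values was not tested. Of 11 Wnt genes 1 was higher, Ascl2, the stem cell factor, at 16.4 and 43.6 CPM, 2.65-fold (2.28 to 3.1) higher, and 3 were lower, the receptors Fzd5, Lrp6 and Lgr4. Axin2, a Wnt feedback gene, stood at 10.9 and 9.54 CPM and Sox9 at 61.5 and 74.9 CPM. Of 13 stem and transit-amplifying genes besides Lgr5, Fgfbp1 stood at 290.1 and 134 CPM and Hopx at 98.6 and 58 CPM, both lower. Fetal-like genes went both ways, 6 higher and 5 lower of 17. Msln, mesothelin, was at 0 UMIs in control cells and at 886 in cKO cells, which puts it at least 236-fold higher if the control is set to 3 UMIs. Clu stood at 4.07 and 18 CPM, and Krt8, a keratin of simple epithelia, at 3324 and 1704 CPM.

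Antigen presentation and interferon genes were lower over nearly whole lists. Of 14 MHC class I and immunoproteasome genes 13 were lower and 0 higher (median -1.62). Psmb8 and Psmb9, inducible proteasome subunits, stood at 273 and 31.6 CPM and 157 and 17.2 CPM, and B2m, the class I light chain, at 509 and 164 CPM. Psmb8 was detected in 68.2% and 12.6% of thinned cells (89.4% and 35.6% unthinned), and in 75.6% and 70.2% of T cells, which express the gene themselves. H2-T3 stood at 22.1 and 0.474 CPM, and H2-D1, the gene within the line, at 503 and 415 CPM. The 14 genes of the standard proteasome core all lay within 1.5-fold, with a median of -0.05. Of 14 interferon response genes 13 were lower and 0 higher (median -2.07), among them Isg15, a ubiquitin-like protein, at 69.1 and 3.97 CPM and Irf7, an interferon regulatory factor, at 48.7 and 9.31 CPM. Both lists had 13 lower members in S cells and in G2/M cells alike. Of 5 MHC class II genes 4 were lower (median -1.05), led by H2-DMa at 19.8 and 2.25 CPM. Their median was -0.50 after thinning to 5000 UMIs, and in non-cycling Atoh1-negative cells 2 were higher and 2 lower (median 0.53).

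The per-cell spread shows whether such differences lay in few or many cells. After thinning, the median cell held 17 UMIs of the MHC class I list in the control (quartiles 12 and 22) and 7 in the cKO library (5 and 9), and 15 of 700 cKO cells (2.14%) reached the control median. Interferon response genes had medians of 4 and 1 UMIs and were at 0 in 5.16% and 30.6% of cells. Colonocyte genes had medians of 35 (quartiles 23 and 64) and 17 (11 and 26), and 84 cKO cells (12%) reached the control median. Without Car1, an added alternative, their medians were 31 (20 and 47) and 16 (11 and 23), and 80 cKO cells (11.4%) reached the control median. The top 10% of cells then held 26.0% and 24.8% of these UMIs. In the other direction, ribosome biogenesis medians were 22 and 29, with 77.1% of cKO cells at or above the control median, against 52.7% of control cells. Nucleotide synthesis medians were 9 and 12, with 73.1% of cKO cells and, because of ties, 58.4% of control cells. The immediate early genes, which respond to stimulation and to cell handling, had medians of 17 and 9.

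**Figure D5:**
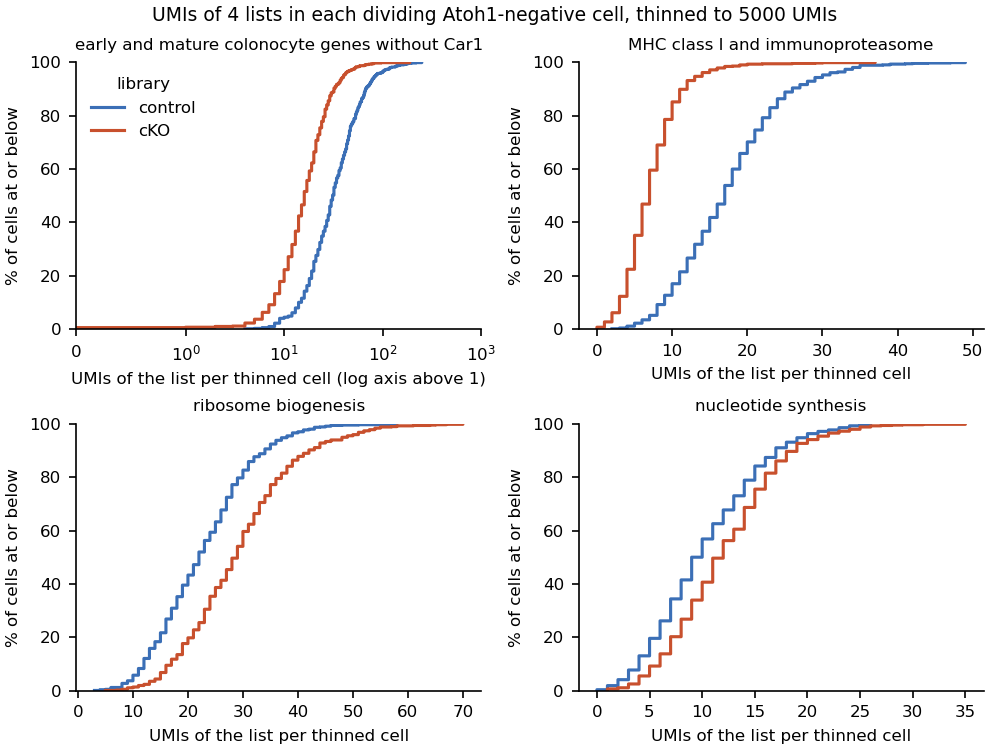
Percent of dividing Atoh1-negative cells (vertical axis) with at most a given number of UMIs of a gene list after thinning to 5000 UMIs (horizontal axis, logarithmic above 1 for colonocyte genes without Car1), 1 stepped line per library. The cKO line lies to the left of the control line for colonocyte (medians 16 and 31) and MHC class I genes (7 and 17), and to its right for ribosome biogenesis (29 and 22) and nucleotide synthesis (12 and 9).

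Single genes with the greatest differences were named by a ranking of genes averaging at least 50 CPM, 12 each way. Among those lower in the cKO cells besides the ones above, Gsdmc4, a gasdermin, stood at 208 and 19.4 CPM, Ugt2b5, a glucuronosyltransferase, at 104 and 10.3 CPM and Gm5485 at 271 and 33.3 CPM. Mptx1, a pentraxin, and Gcg, the proglucagon hormone gene, were also among the 12, at 251 and 1.19 CPM and 123 and 3.56 CPM. In the control library 5 cells held 60.1% of the Mptx1 UMIs and 94.4% of the Gcg UMIs.

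Among genes higher in the cKO cells, Il4i1, an amino acid oxidase (ENSMUSG00000074141, chromosome 7:44816387-44840809, plus strand), was counted 3 times in control cells and 2185 times in cKO cells, 0.222 and 129.5 CPM, a ratio of 583 (199 to 2830.3), and was detected in 0.139% and 27.6% of thinned cells. Ncf4, a subunit of the phagocyte NADPH oxidase, stood at 0.296 and 101 CPM, in 0.139% and 37% of thinned cells and 9.76% and 15.8% of T cells. Mt2, a metallothionein, stood at 34.5 and 441 CPM, 12.8-fold (11.6 to 14.1) higher, in 15.5% and 79.9% of thinned cells. Marcksl1 stood at 20.5 and 167 CPM, in 11.4% and 54.1% of thinned cells, and Ccl20, a chemokine of the epithelium, at 21.6 and 196 CPM. Ly6g stood at 0.666 and 161 CPM, Wfdc17 at 10.4 and 124 CPM, Wfdc18 at 47 and 308 CPM and Gm1673 at 19.1 and 149.96 CPM. Rac2, a GTPase of blood cells, stood at 0.148 and 107 CPM. It was detected in 78% and 86% of T cells, which express the gene themselves. With the T cells' UMIs per barcode subtracted no level was left in the cKO cells, but for such a gene the subtraction cannot measure free RNA. Slpi and Spink1, secreted protease inhibitors, stood at 5.63 and 290.2 CPM and 23.1 and 409.6 CPM, with 65.7% and 61.4% of their cKO UMIs in 5 cells. The neutrophil genes S100a8 and S100a9 were at 0 in the control and at 29.8 and 38.5 CPM in the cKO cells, with 74.2% and 71.5% in 5 cells. These markers stand beside the blood cell genes of the ranking, and their part in them was not tested.

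The same comparison in neighbouring cells shows which differences the dividing cells had in common with others. In non-cycling Atoh1-negative cells 19.7% of the 7026 genes were higher and 13% lower in the cKO library, and in dividing Atoh1-positive cells (822 and 502) 12.6% and 10.9%. List medians were alike in the dividing Atoh1-negative, dividing Atoh1-positive and non-cycling cells for MHC class I (-1.62, -1.87 and -1.62) and interferon genes (-2.07, -2.05 and -1.89), and for colonocyte genes they were -1.62, -1.28 and -1.33. For nucleotide synthesis they were 0.34, 0.21 and 0.25, and for ribosome biogenesis 0.25, 0.14 and 0.36. Nuclear oxidative phosphorylation genes differed more outside the dividing cells, with 2 of 34 lower in the dividing Atoh1-negative cells (median -0.26) and 13 lower in the non-cycling cells (median -0.54). No test of the difference between cell groups was possible with 1 library per genotype.

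A ranking of genes by the gap between the log2 ratios of dividing and non-cycling cells was led on the non-cycling side by Gcg (-4.76 in dividing and 1.53 in non-cycling cells), Chgb (-1.49 and 3.87), Fabp5 (1.95 and 5.51), Ccl20 (3.12 and 5.99), Sct (0.60 and 2.86) and Ckb (-2.65 and -0.52). The sign of Sct in dividing cells rests on cells of neither phase, with -0.93 in G2/M and -1.22 in S cells. On the dividing side were Aqp4, a water channel (0.39 and -1.09), Sval1 (-1.16 and -2.58), S100g (-2.88 and -4.26), Tubb4b, a tubulin (0.43 and -0.91), Maoa (-0.73 and -1.98) and Prdx6 (0.24 and -1.0). Fabp5 and Ccl20 were higher in the cKO library in both cell groups, by more in non-cycling cells, where their levels were 32.8 and 1541 and 16.5 and 1111 CPM. Aqp4 was higher in the cKO library in dividing cells and lower in non-cycling cells, though within the 1.5-fold line in dividing cells. RNA of secretory cells was present in the dividing cells although Atoh1 was at 0. Goblet markers summed to 5096 and 3314 CPM, with Muc2, the gel-forming mucin, at 797 and 347 CPM. Of 6 measured enteroendocrine markers 5 were lower and 1 higher in the cKO cells, with summed levels of 484 and 21.6 CPM in S cells and 754 and 128 CPM in G2/M cells, against 637 and 605 CPM over all dividing cells.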

How the data were processed

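The deposited files are filtered droplet matrices of whole-number UMI counts per gene and cell, 1 per library, not normalized. Cell Ranger 3.0.0 and Seurat 3 are named in the submitters' processing notes, and the matrix headers name Cell Ranger 3.1.0. The genome build and annotation of the counts were not given in the sources used here. Of 31053 gene IDs, 31011 matched GENCODE M21, which was used for chromosomes and positions only.

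From the counts, cells were chosen by the rule, UMIs were summed over cells, and levels (CPM) were compared as log2 ratios with a pseudocount of 1 CPM among genes averaging 10 CPM or more, with the 1.5-fold line. Phases were scored with scanpy 1.11.5 in both libraries together on cells thinned to 5000 UMIs. Other tools were Python 3.11.15, numpy 2.4.6, scipy 1.17.1 and pandas 2.3.3. The programs were tested on simulated data. With 1 library per genotype there is no test, no p-value and no biological error. T cells served as the background for free RNA. Scrublet's automatic threshold marked 0 and 1 cells and so did not work, and no doublets were removed, though 5 and 7 of the chosen cells scored 0.25 or more.

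Named genes were the 12 with the largest ratios each way between the libraries (averaging 50 CPM or more, same sign in S and G2/M cells), the 12 each way with the largest mean phase ratio (20 CPM or more, same sign in both libraries), the 4 each way that differed most in phase ratio and the 6 each way that differed most from non-cycling cells, plus members of the gene lists; some named by these rules are not reported here. Cells and lists were chosen with earlier results of these data known. Alternatives covered depth, thinning, the sum of the 4 genes, mitochondrial share, doublets, scaling, pseudocount, filter and phase calling.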

Additional observations from a re-analysis of the deposited data

How the results depend on the processing

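Depth limits the genes under 10 CPM and the phase calls of single cells. The share of dividing Atoh1-negative cells in the cKO library was 12.4% after thinning to 5000 UMIs and 17.0% without cells of over 50000 UMIs. The control and cKO shares were 8.88% and 13.4% with 10 or more UMIs of the 4 genes, 13.9% and 21.5% with 3 or more, and 9.92% and 11.7% without Birc5. The alternatives without Birc5 and without cells of over 50000 UMIs were chosen after seeing the data. Genes higher and lower in the cKO cells numbered 325 and 257 at 50 CPM or more and 2399 and 1635 with no filter beyond 10 UMIs, where fewer or more genes are tested, and the lower genes numbered 513 with a pseudocount of 10 CPM. The G2/M shares of control and cKO cells were 64.9% and 48.7% with unthinned cells, 57.6% and 43.4% with standardised scores, 75.5% and 60.1% with the rule genes added to the G2/M list, 60.3% and 47.1% in another thinning draw and 74.5% and 67.5% without Birc5, and the control share was 62.5% with each library scored alone. The G2/M share was lower in the cKO library in each of these. Genes higher in G2/M and in S in both libraries numbered 27 and 30 with a pseudocount of 10 CPM and 15 and 10 at 50 CPM or more, and 25 were higher in S with standardised scores. Of 510 recomputed library ratios of named genes 7 moved and 5 reversed. The log2 ratio of Sval1 turned to 1.02 in S cells, and that of Sct to -0.93 in G2/M cells, -1.22 in S cells, -0.95 without Birc5 and -0.53 without cells of over 50000 UMIs. With standardised scores the mean phase ratios of Pyy, Pmp22 and Sct turned to -4.44, -0.078 and -1.07. The cause was not tested. Of 534 recomputed list medians 5 crossed the 1.5-fold line, and of 36 lists 14, each with a median within that line, changed sign under 1 or more alternatives, among them spindle genes (0.045 at 50 CPM or more) and nucleotide synthesis (-0.053 in S cells). Scaling by the median of ratios or without the most abundant genes shifted log2 ratios by 0.033 and 0.037. No paired analysis was possible because each genotype is 1 library and no result comes from a test.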

Other observations

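Lists outside the cell cycle and lineage genes were measured in the same cells. Of 15 genes of the m6A machinery 3 were higher in the cKO dividing cells and 1 lower. Rbm15, an adaptor of the methyltransferase, stood at 17.8 and 93.2 CPM, 5.25-fold (4.58 to 6.04) higher, Ythdf2, a reader that speeds RNA decay, at 43.3 and 110.2 CPM, Ythdf1 at 28.9 and 45.2 CPM, and Igf2bp2, another reader, at 24.8 and 13.7 CPM. Rbm15 was detected in 8.93% and 32.7% of thinned cells, against 12.2% and 5.26% of T cells. Of 12 p53 targets 4 were higher, Phlda3 at 2.15 and 39.8 CPM, Gdf15 at 89.6 and 203 CPM, Aen at 23 and 52.2 CPM and the apoptosis effector Bax at 179 and 309.9 CPM, while Btg2 and Pmaip1 were lower and Cdkn1a and Mdm2 were within the line. Of 17 apoptosis regulators 6 were higher and 1 lower, with Birc3, an inhibitor of apoptosis, at 8.36 and 37.3 CPM, Bik at 15 and 36.8 CPM and Fadd at 18.4 and 42.9 CPM.

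Of 21 cholesterol synthesis genes 10 were lower and 0 higher (median log2 ratio -0.54), among them Cyp51 at 106 and 50.2 CPM and Sqle at 65.7 and 31.5 CPM. Asns, asparagine synthetase, was the 1 higher gene of 19 in endoplasmic reticulum folding and stress, at 29.6 and 94.3 CPM, against 4 lower. Of 14 immediate early genes 11 were lower and 0 higher (median -1.15), among them Atf3 at 466 and 129.5 CPM and Fos at 573 and 235 CPM; these genes also respond to tissue dissociation, and its part in the values was not tested. Of 11 DNA damage genes 3 were higher and 3 lower, with Brca2 at 6.37 and 14.9 CPM.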
